A study of Mus musculus with 4 samples.

Results

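The axon guidance genes of the semaphorin, ephrin, SLIT and netrin systems were examined in RNA sequencing libraries labelled as uterine NK cells. The genes were all those whose symbols begin as semaphorins of classes 3 to 7, plexins, Eph receptors, ephrins, SLIT, ROBO, netrin or UNC5 genes, which gave 76 of the 21993 genes in each file. They comprised 35 ligand genes, 31 receptor genes and 10 genes that share only a name with these families or act in another way (6 Slitrk genes, 2 netrin-G genes, Unc50 and Unc5cl). The libraries came from pregnant female mice mated with B6 males at gd11.5 (gestational day), and the uterine cells had been sorted for CD45 and NK1.1 and against CD3. The group called Ncr1Cre here, with 2 libraries, carries Cre under the control of Ncr1, a gene of NK cells, and the group called control, also with 2 libraries, carries no Cre. The rest of the genotype, shared by both groups in the labels, is not reported here. Whether replicates were different mice is not stated in the labels, and the p-values therefore reflect only how far these libraries differ, which may be technical. The comparison addressed here is which guidance ligands and receptors differ between the libraries of the genotypes.

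Guidance proteins were first described for their steering of growing axons, and the same proteins act in blood vessels, epithelia and immune cells. Semaphorins are secreted or membrane-bound ligands of plexins, and most secreted class 3 members need a neuropilin as co-receptor. Ephrins are held in the membrane and bind Eph receptor tyrosine kinases on the neighbouring cell, with ephrin-A proteins preferring EphA and ephrin-B proteins preferring EphB receptors. SLIT proteins are secreted and bind ROBO receptors, and netrins are laminin-related ligands of DCC, neogenin and UNC5 receptors. In the uterus and placenta these systems are known from vessel growth, epithelial organisation and cell migration.

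The values are FPKM (fragment counts scaled to the length of the transcript and the size of the library). The guidance genes took between 0.105% and 0.132% of the summed FPKM of a library. Steps in the low values, searched only within a set range of totals, implied between 20930000 and 38540000 fragments per library. Whole multiples of these totals would also fit such steps. With these totals 1 fragment on 1 kb was worth 0.0259 to 0.0478 FPKM, and values well below 1 rest on few fragments. The NK-cell label was checked against 12 marker genes, whose summed level was only 30.3 to 30.5 FPKM in the Ncr1Cre libraries and 21.3 to 22.0 in the control libraries. Ncr1 itself was listed at 0 in replicate 1 of Ncr1Cre and at 0.152 FPKM in replicate 2, with 0.136 and 0.359 in control. The 10 stromal markers summed to 14566 and 14569 FPKM in Ncr1Cre and to 32687 and 33244 in control, and all 10 were lower in Ncr1Cre. The 12 epithelial markers summed to 48547 and 51512 FPKM in Ncr1Cre and to 10103 and 10213 in control, and 11 of them were higher in Ncr1Cre. Most of that sum was Prap1, a uterine epithelial gene, at 46369 and 49335 FPKM in Ncr1Cre and 9530 and 9667 in control. None of the stromal or epithelial markers was listed at 0. The 5 tested trophoblast markers of 7 were also higher in Ncr1Cre (313 to 354 FPKM in control and 941 to 1064 in Ncr1Cre, with Gcm1 listed at 0 in all), and none of the 3 T-cell markers reached 1 FPKM on average. The libraries hold RNA of cells other than NK cells, and in these bulk values fewer cells of a type and less RNA per cell cannot be told apart.

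Guidance genes differed in both directions, often within the same family. Of the 76 genes, 45 averaged 1 FPKM or more across the 4 libraries, the filter used, and were tested with limma on log2(FPKM + 1), together with all other genes at that level. A gene was called at a Benjamini-Hochberg adjusted p under 0.05 over all 11762 tested genes. By this test 16 guidance genes were higher and 15 lower in Ncr1Cre, so 68.9% were called, while 48.5% of all tested genes were called. The share called higher was 35.6% against 30.9% over all genes, and the share called lower was 33.3% against 17.6%. The genotypes did not overlap in 40 of the 45, against 76.2% of all tested genes. Means at least 2-fold apart on this scale without overlap were found for 9 genes higher (9.81% over all genes) and 4 lower (2.7%). The median log2 fold change, given throughout as Ncr1Cre minus control on the log2(FPKM + 1) scale, was -0.13 for the guidance genes and 0.11 for all tested genes. The balance of directions depended on scaling, with 13 higher and 20 lower when each library was scaled to the same FPKM sum, 13 and 19 after quantile normalization and 16 and 18 after median rescaling, which removes the shift of 0.11. All tested genes moved the same way, with 2307 higher and 3287 lower after sum scaling, 2615 and 3032 after quantile normalization and 2950 and 2709 after median rescaling, so the shift of balance was not particular to the guidance genes. At a mean of at least 5 FPKM, 84.0% of 25 guidance genes and 53.7% of all 7516 genes were called. When all 21993 genes were fitted with no filter, 21.1% of the 76 guidance genes and 17.9% of all genes were called, a much smaller gap than with the filter. Of the 31 calls 16 remained, namely those of Sema3f, Sema4a, Sema4b, Sema4c, Sema4d, Sema4g, Sema7a, Plxna4, Efna1, Efnb2, Epha1, Epha2, Ephb4, Slit3, Robo2 and Unc5cl. Dropping the filter leaves each log2 fold change as it is. It refits the trend of variance over all genes, so standard errors, p-values and their adjustment all change. The other 15 missed the threshold, with adjusted p from 0.0621 (Plxnb1) to 0.186 (Sema5a). Among them were genes with large differences described below, namely Sema3b (0.0636), Ntn1 (0.0693), Ntn4 (0.0793), Ephb2 (0.114) and Robo1 (0.122). Sema6d, Unc5cl and Plxna4 passed the filter only through the genotype in which they were high, and a gene at their level in the other genotype alone would not have been tested. Where a value without 1 library is given below, the spread came only from the genotype that kept both. The lone library was assumed to vary like it. Fewer libraries also weaken the test, so a call lost or gained there need not show dependence on that library. The log2 fold change of Slit1, for example, was 0.71 without replicate 1 of control and 0.67 with all libraries, yet the call was lost. FPKM values of the libraries are given in the order of replicates 1 and 2, and n is 2 for each genotype.

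**Figure D1:**
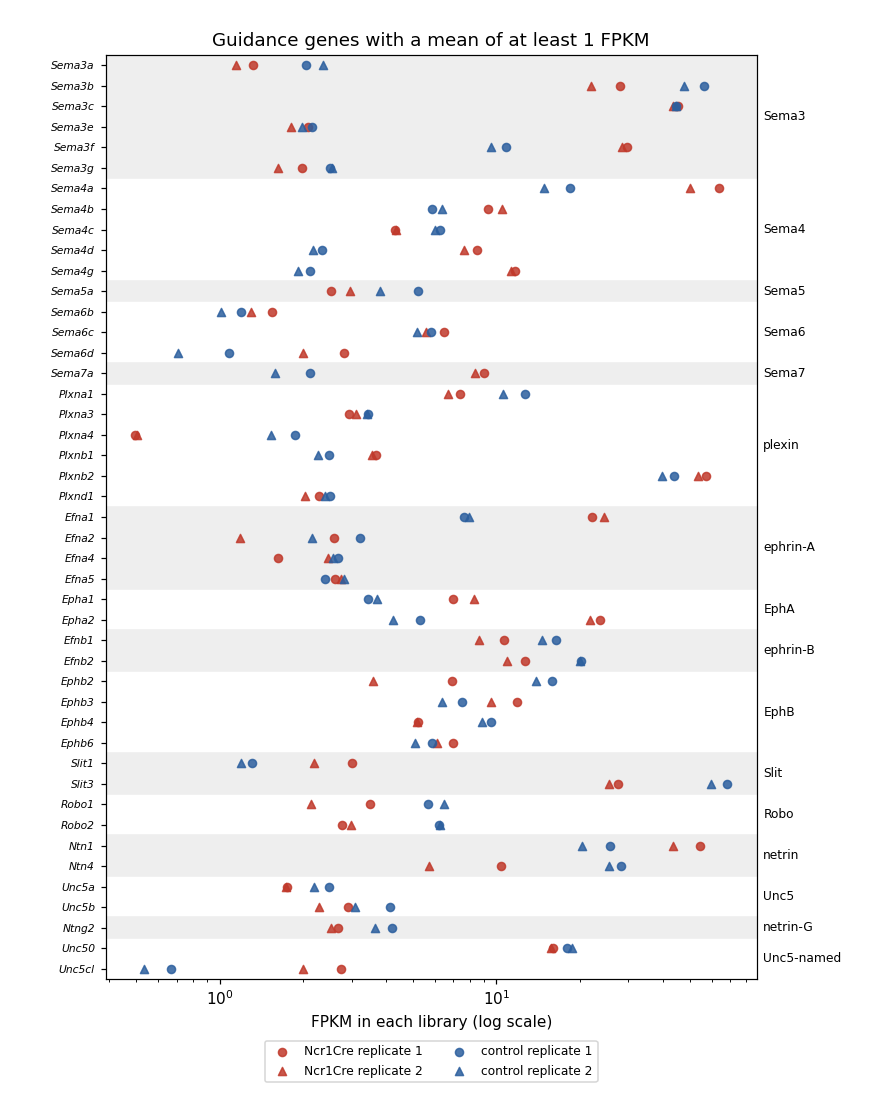
FPKM on a log scale of the 45 tested guidance genes in each library, grouped by family, with Ncr1Cre in red and control in blue and replicates 1 and 2 as circles and triangles. In 40 of the 45 genes the red and blue points do not overlap, with Sema4a, Sema4g, Sema7a and Epha2 to the right in Ncr1Cre and Slit3, Ntn4 and Sema3b to the right in control.

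**Figure D2:**
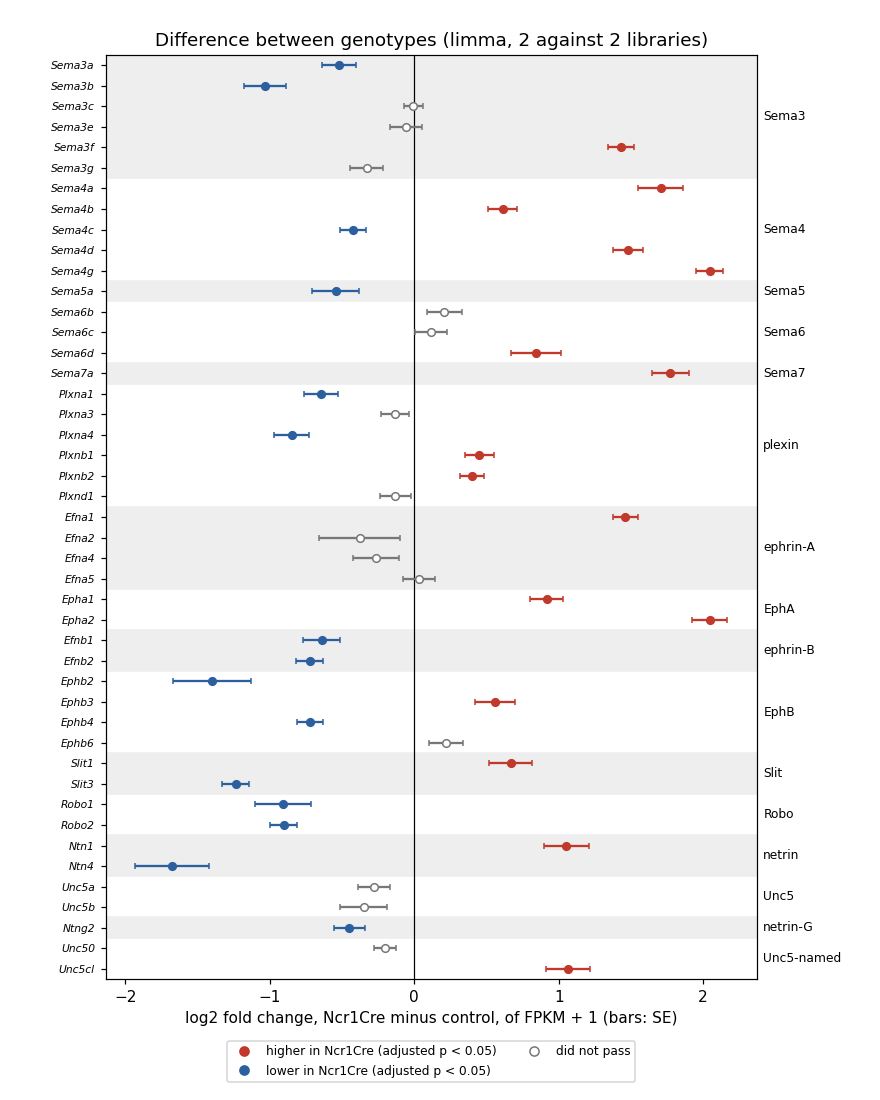
Log2 fold change of FPKM + 1 between the genotypes for the same 45 genes (points, limma estimate; bars, standard error; 2 libraries a genotype). Filled red points are the 16 genes called higher in Ncr1Cre, filled blue points the 15 called lower and open points the 14 that did not pass.

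Among the secreted class 3 semaphorins, Sema3f rose while Sema3b and Sema3a fell, and Sema3c stood at the same height in all libraries. Sema3f, which signals through neuropilin-2 and plexin-A receptors, stood at 29.7 and 28.5 FPKM in Ncr1Cre and 10.8 and 9.56 in control. Both Ncr1Cre values lay far above both control values (2.86-fold; log2 fold change 1.43, SE 0.090, adjusted p = 0.000416). Sema3b, another secreted neuropilin ligand, went the other way, with 28.1 and 21.9 FPKM against 56.3 and 47.7. It was 2.08-fold higher in control without overlap (log2 fold change -1.03, SE 0.15, adjusted p = 0.00435). The ratio of Sema3f to Sema3b within a library does not change when all its FPKM values are multiplied by a constant. It was 1.06 and 1.30 in Ncr1Cre and 0.192 and 0.200 in control. This pair, like the other pairs of genes set against each other below, was chosen after the values were seen. Sema3a, the classical collapsing factor of growth cones, stood at 1.32 and 1.15 FPKM against 2.05 and 2.36 (log2 fold change -0.52, SE 0.12, adjusted p = 0.0179). Its call was lost without replicate 2 of Ncr1Cre (adjusted p = 0.0571) and without replicate 2 of control (0.0873).

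Sema3c was the most abundant class 3 gene in Ncr1Cre, at 45.2 and 43.5 FPKM, and stood at 44.4 and 44.7 in control. Its genotypes overlapped, and the difference of -0.01 on the log2 scale had a standard error of 0.066 (adjusted p = 0.943). With libraries scaled to the same FPKM sum, the difference became -0.25 and passed (adjusted p = 0.0428). Sema3e, the ligand of plexin-D1 in vessels, also overlapped, at 2.09 and 1.82 against 2.15 and 1.98 FPKM. Sema3g did not pass at 1.99 and 1.62 against 2.50 and 2.54 FPKM (adjusted p = 0.0680), but did after median rescaling (0.0276), quantile normalization (0.0182) and sum scaling (0.0235). The 7th gene, Sema3d, was below the filter, between 0.365 and 0.707 FPKM. Summed over the class, the level was 104 ± 7.13 FPKM in Ncr1Cre and 114 ± 6.55 in control, a small difference beside those of Sema3f and Sema3b, and the libraries nearest to each other stood at 108.9 and 109.5 FPKM.

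Class 4 semaphorins, which are membrane proteins with many roles on immune and epithelial cells, were mostly higher in Ncr1Cre. Of the 6 genes 5 were tested, and 4 rose and 1 fell. Sema4a, known for costimulation of T cells, was the most abundant guidance gene in replicate 1 of Ncr1Cre, at 63.5 FPKM, and stood at 50.1 in replicate 2 and at 18.5 and 14.9 in control. The genotypes were well apart (3.41-fold; log2 fold change 1.71, SE 0.16, adjusted p = 0.00111). Sema4g stood at 11.7 and 11.3 FPKM against 2.12 and 1.92. This was the largest fold among the tested guidance genes, 5.68-fold (log2 fold change 2.05, SE 0.095, adjusted p = 0.000232). Sema4d, which encodes the lymphocyte semaphorin CD100 and binds plexin-B1 and CD72, stood at 8.51 and 7.67 FPKM against 2.35 and 2.17 (3.58-fold; log2 fold change 1.48, SE 0.10, adjusted p = 0.000530). Sema4b rose less, from 6.11 ± 0.361 to 9.88 ± 0.809 FPKM (log2 fold change 0.61, adjusted p = 0.00688).

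Sema4c, a ligand of plexin-B2, was the exception of its class. It stood at 4.29 and 4.33 FPKM in Ncr1Cre and 6.26 and 6.01 in control (log2 fold change -0.43, SE 0.090, adjusted p = 0.0150), a call that was lost without replicate 1 of control (0.0798) and without replicate 2 of control (0.0591). The ratio of Sema4a to Sema4c was 14.8 and 11.6 in Ncr1Cre and 2.95 and 2.48 in control. Sema4f stayed between 0.0318 and 0.187 FPKM. Summed over the class, Ncr1Cre held 90.7 ± 9.45 FPKM and control 33.2 ± 2.57, and Sema4a gave 59.7% to 65.2% of that sum in Ncr1Cre and 47.4% to 52.6% in control. In the same libraries 11 of 12 epithelial markers and 8 of 9 macrophage markers were higher, the latter with a summed level of 99.9 to 101 FPKM against 29.0 to 31.0. No macrophage marker was listed at 0, and their part and that of the epithelial markers in the class 4 result was not tested.

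The single class 7 gene rose, and of the 4 tested class 5 and 6 genes Sema6d rose, Sema5a fell and the others did not pass. Sema7a, which encodes a membrane-anchored semaphorin that binds plexin-C1 and integrin beta-1, stood at 9.05 and 8.39 FPKM in Ncr1Cre and 2.13 and 1.58 in control (4.70-fold; log2 fold change 1.77, SE 0.13, adjusted p = 0.000607). Its plexin, Plxnc1, stood below the filter at 0.901 and 0.460 FPKM against 0.346 and 0.400, without overlap. Sema6d, a transmembrane ligand of plexin-A receptors, stood at 2.80 and 2.0 FPKM against 1.08 and 0.706 (log2 fold change 0.84, SE 0.18, adjusted p = 0.0144; 0.0596 without replicate 2 of control). Sema6c, the most abundant of class 6, did not pass at 6.48 and 5.57 against 5.79 and 5.16 FPKM, nor did Sema6b at 1.55 and 1.30 against 1.19 and 1.01. Sema6a was just below the filter at 0.894 to 1.00 FPKM in all libraries. Sema5a, which carries thrombospondin repeats, stood at 2.53 and 2.97 FPKM against 5.22 and 3.79 (log2 fold change -0.54, SE 0.16, adjusted p = 0.0414). That call was near the threshold and was lost without replicate 1 of Ncr1Cre (0.104) and without replicate 1 of control (0.151). Sema5b was listed at 0 in replicate 2 of control and stood at no more than 0.0486 FPKM in the others.

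On the receptor side, both tested plexin-B genes were higher and Plxna1 and Plxna4 lower in Ncr1Cre, while Plxna3 and Plxnd1 did not pass. Plxnb2, the receptor of several class 4 semaphorins, was the most abundant receptor gene of all, at 57.2 and 53.6 FPKM in Ncr1Cre and 43.8 and 39.6 in control. It gave 75.6% and 75.9% of the summed plexin FPKM in Ncr1Cre and 64.9% and 65.3% in control. The difference was 0.40 on the log2 scale (SE 0.083, adjusted p = 0.0139), and its call was lost under quantile normalization (0.0622), sum scaling (0.226), without replicate 1 of Ncr1Cre (0.0509) and without replicate 2 of control (0.0601). Plxnb1, the receptor of Sema4d, stood at 3.68 and 3.55 against 2.49 and 2.27 FPKM (log2 fold change 0.45, SE 0.10, adjusted p = 0.0182). Its call was lost under quantile normalization (0.0608), sum scaling (0.101) and without 3 of the 4 libraries in turn (0.0573 to 0.0897), and it shares exon sequence with Gm7628 on the opposite strand. Both plexin-B genes kept their direction under quantile normalization and sum scaling. Leaving out a library could not turn it, since their genotypes did not overlap. Plxnb3 was no higher than 0.0182 FPKM in any library.

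Plxna1, a receptor of class 3 and class 6 semaphorins, stood at 7.41 and 6.66 FPKM in Ncr1Cre and 12.7 and 10.6 in control (log2 fold change -0.65, SE 0.12, adjusted p = 0.00938). The ratio of Plxnb2 to Plxna1 was 7.72 and 8.04 in Ncr1Cre and 3.46 and 3.74 in control, so the unequal change of these genes holds without any scaling. Plxna4 stood at 0.496 and 0.504 FPKM against 1.87 and 1.54 (log2 fold change -0.85, adjusted p = 0.00440). Plxna3 did not pass at 2.93 and 3.11 against 3.43 and 3.40 FPKM, although sum scaling gave a call (adjusted p = 0.0473). Plxnd1, a vascular plexin, did not pass at 2.28 and 2.03 against 2.51 and 2.40 FPKM. Plxna2 was below the filter, at 0.425 and 0.954 FPKM in Ncr1Cre and 0.303 and 0.394 in control.

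The neuropilin co-receptors are not part of the families above but complete the class 3 receptor. Nrp1 stood at 4.16 and 3.91 FPKM in Ncr1Cre and 6.33 and 6.08 in control (log2 fold change -0.52, SE 0.093, adjusted p = 0.00911; 0.0537 without replicate 1 of control). Nrp2, the co-receptor preferred by Sema3f, did not pass at 2.46 and 2.54 against 2.75 and 2.96 FPKM (adjusted p = 0.305). The ligand Sema3f differed by 1.43 on the log2 scale, and Nrp2 by -0.14 with a standard error of 0.10.

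The ephrin system divided in part by type: Efna1 and both tested EphA genes rose, and both tested ephrin-B genes fell together with Ephb2 and Ephb4. Ephb3 rose, and the other tested ephrin-A genes did not pass. Promoters of a ligand and a receptor from each side are shown because these pairs moved together within the pair and opposite to the other. They are the 250 bases before the RefSeq start on GRCm38.p6, in the direction of the gene, and lie outside annotated exons. Capitals mark exact matches, on either strand, to GGGCGG (the GC box), to the CCAAT box, to TATAAA (a core promoter element), to CACCTG (an E-box) or to AGGAAG (an ETS-type core). None of these motifs contains another.
Efna1 (chr3:89279646-89279895, minus strand): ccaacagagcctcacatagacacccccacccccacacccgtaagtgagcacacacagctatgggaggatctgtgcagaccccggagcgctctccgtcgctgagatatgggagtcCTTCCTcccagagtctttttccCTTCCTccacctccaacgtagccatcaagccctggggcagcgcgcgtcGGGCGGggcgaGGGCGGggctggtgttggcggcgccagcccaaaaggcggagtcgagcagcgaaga
Epha2 (chr4:141300971-141301220, plus strand): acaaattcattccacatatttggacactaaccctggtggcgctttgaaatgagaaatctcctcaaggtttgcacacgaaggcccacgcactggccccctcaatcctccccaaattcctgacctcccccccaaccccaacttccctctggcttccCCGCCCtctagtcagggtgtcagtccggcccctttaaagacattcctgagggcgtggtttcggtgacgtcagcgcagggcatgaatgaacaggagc
Efnb2 (chr8:8661243-8661492, minus strand): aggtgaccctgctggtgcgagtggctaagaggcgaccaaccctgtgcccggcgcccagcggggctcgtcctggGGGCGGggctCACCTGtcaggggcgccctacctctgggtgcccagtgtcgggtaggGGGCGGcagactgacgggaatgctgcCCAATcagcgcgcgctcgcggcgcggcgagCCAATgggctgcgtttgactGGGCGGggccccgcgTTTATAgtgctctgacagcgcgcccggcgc
Ephb2 (chr4:136836013-136836262, minus strand): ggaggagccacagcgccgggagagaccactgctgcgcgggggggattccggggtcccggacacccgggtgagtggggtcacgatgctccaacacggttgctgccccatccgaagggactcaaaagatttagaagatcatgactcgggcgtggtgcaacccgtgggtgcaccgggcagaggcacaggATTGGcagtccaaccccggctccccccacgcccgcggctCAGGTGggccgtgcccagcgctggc
The window of Efna1 held GC-box and ETS-type matches, that of Epha2 a single GC-box match, that of Efnb2 7 matches of 4 kinds including TATAAA, and that of Ephb2 a CCAAT and a CACCTG match. GC content was 64.4%, 55.6%, 72.0% and 68.4% in that order. Entries were found for 66 of the 76 guidance genes, with 83 windows, since a gene can have several starts. GGGCGG occurred in 56 of the 83, against 32.7% of the 32851 windows in the table. It occurred in 18 of 22 windows of genes called higher, which belong to 13 genes, and in 7 of 15 windows of genes called lower, which belong to 12. CCAAT occurred in 4 and 5 of these windows (33.9% of all), TATAAA in 0 and 1 (12.4%), CACCTG in 4 and 4 (17.2%) and AGGAAG in 8 and 4 (29.5%). These are matches of letters in windows that partly share a gene, not measured binding.

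Efna1, the ligand whose window is shown first, encodes a membrane-anchored ephrin of epithelium and endothelium. It stood at 22.1 and 24.4 FPKM in Ncr1Cre and 7.62 and 7.98 in control, with no overlap (2.98-fold; log2 fold change 1.46, SE 0.089, adjusted p = 0.000387). Epha2, a receptor of ephrin-A1 that is abundant in epithelia, stood at 23.7 and 21.9 FPKM against 5.32 and 4.24. Its 4.77-fold difference was, with that of Sema4g, the largest on the log2(FPKM + 1) scale among the tested guidance genes (2.05, SE 0.12, adjusted p = 0.000363). Epha1, an epithelial Eph receptor, rose as well, from 3.43 and 3.69 FPKM to 6.97 and 8.31 (2.14-fold; log2 fold change 0.92, SE 0.12, adjusted p = 0.00304). Its exons overlap those of Zyx on the opposite strand, and the sources used here do not say whether reads were counted by strand, so its level is uncertain. Epha4 was below the filter but stood at 1.10 and 0.332 FPKM in Ncr1Cre and only 0.0785 and 0.172 in control. Of the other EphA genes, Epha5, Epha6 and Epha10 were listed at 0 in all libraries, Epha7 and Epha8 did not exceed 0.0514 FPKM, and Epha3 lay between 0.291 and 0.586.

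The remaining ephrin-A ligands were low and did not pass. Efna5 overlapped between the genotypes at 2.60 and 2.75 against 2.39 and 2.81 FPKM. Efna2 overlapped too, at 2.60 and 1.19 against 3.22 and 2.15 FPKM, but passed without replicate 1 of Ncr1Cre (log2 fold change -0.74, adjusted p = 0.0334). Efna4 stood at 1.63 and 2.47 against 2.69 and 2.58 FPKM and passed without replicate 2 of Ncr1Cre (-0.46, adjusted p = 0.0479). Efna3 was between 0.175 and 0.356 FPKM. Efna1 gave 75.7% and 78.3% of the summed ephrin-A FPKM in Ncr1Cre and 47.4% and 50.3% in control.

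Both abundant ephrin-B ligands fell. Efnb2, which marks arterial endothelium and also acts in stromal cells, stood at 12.7 and 10.9 FPKM in Ncr1Cre and at 20.1 in both control libraries (log2 fold change -0.72, SE 0.096, adjusted p = 0.00345). Efnb1, an X-linked ephrin with roles in boundary formation, stood at 10.6 and 8.62 FPKM against 16.5 and 14.6 (log2 fold change -0.64, SE 0.13, adjusted p = 0.0121; 0.0574 without replicate 1 of control). The shares of Efnb1 and Efnb2 in their sum hardly differed, with Efnb2 at 53.1% to 56.6% in all libraries. Efnb3 was below the filter, at 0.572 and 0.516 against 1.05 and 0.829 FPKM, in the same direction and without overlap.

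The EphB receptors moved in both directions. Ephb2, the most abundant EphB gene in control, stood at 15.9 and 13.9 FPKM there and at 6.92 and 3.57 in Ncr1Cre, so the Ncr1Cre replicates differed more from each other than the control replicates (2.84-fold lower; log2 fold change -1.40, SE 0.27, adjusted p = 0.0112). Ephb4, the venous partner of ephrin-B2, stood at 5.19 in both Ncr1Cre libraries and at 9.58 and 8.84 in control (1.77-fold lower; log2 fold change -0.72, SE 0.090, adjusted p = 0.00294), with an exonic overlap with Zan on the opposite strand. Ephb3, known from intestinal crypts, went up, with 11.8 and 9.57 FPKM against 7.52 and 6.34 (log2 fold change 0.56, SE 0.14, adjusted p = 0.0240). Its call was lost under quantile normalization (adjusted p = 0.0597) and sum scaling (0.119), with the same direction. The call was also lost without replicate 1 of Ncr1Cre (log2 fold change 0.42) and without replicate 2 of control (0.45). The ratio of Ephb3 to Ephb2 was 1.71 and 2.68 in Ncr1Cre and 0.473 and 0.455 in control. Ephb6, whose kinase domain is inactive, did not pass at 6.96 and 6.11 against 5.87 and 5.07 FPKM (adjusted p = 0.174). Ephb1 was between 0.163 and 0.399 FPKM.

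Set side by side, the summed A genes were higher in Ncr1Cre and the summed B genes higher in control, although not every gene followed. Of the 4 tested ephrin-A genes only 1, Efna1, was called, and Ephb3 rose among the EphB genes. In replicate 1 of Ncr1Cre the EphA and EphB sums were nearly equal, at 32.3 and 31.1 FPKM. Summed EphA FPKM was 31.5 ± 1.03 in Ncr1Cre and 9.01 ± 0.400 in control, and summed EphB FPKM was 27.9 ± 4.50 and 36.8 ± 3.22. The ratio of Efna1 to Efnb2 was 1.75 and 2.23 in Ncr1Cre and 0.379 and 0.397 in control. The ratio of Epha2 to Ephb2 was 3.43 and 6.12 against 0.335 and 0.305. The summed level of all 8 ephrins was nonetheless 52.2 ± 1.26 FPKM in Ncr1Cre and 52.6 ± 1.71 in control. Epithelial markers were higher and stromal markers lower in the libraries in which the A sums were higher and the B sums lower. The part of these markers in this was not tested.

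**Figure D3:**
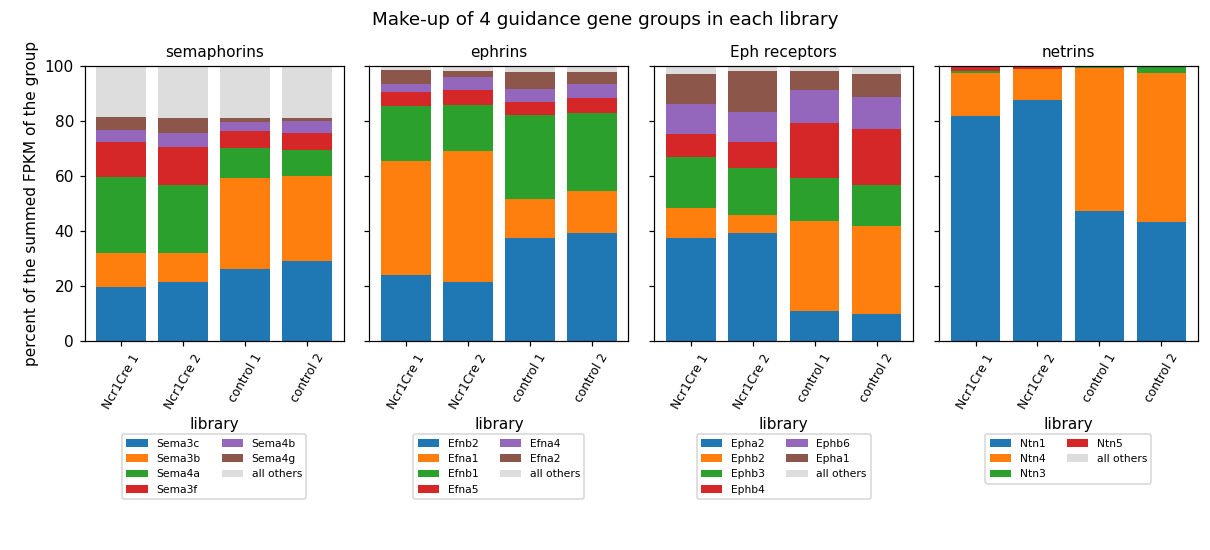
Share of each gene in the summed FPKM of semaphorins, ephrins, Eph receptors and netrins (percent, vertical axis) in each of the 4 libraries; the 6 genes with the highest mean (all 4 for the netrins) are coloured and the others grey. In Ncr1Cre the shares of Sema4a, Efna1, Epha2 and Ntn1 are larger, and in control those of Sema3b, Efnb2, Ephb2 and Ntn4, with both replicates of a genotype alike.

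In the SLIT system the dominant ligand and both main receptors were lower in Ncr1Cre. Slit3, known from stromal and endothelial cells, was the most abundant guidance gene of the control libraries, at 68.2 and 59.6 FPKM, and stood at 27.5 and 25.5 in Ncr1Cre. The genotypes were far apart relative to their replicates (2.41-fold lower; log2 fold change -1.24, SE 0.095, adjusted p = 0.000681). Robo2 stood at 2.77 and 2.98 FPKM against 6.23 and 6.28 (2.18-fold lower; log2 fold change -0.91, SE 0.094, adjusted p = 0.00165). Robo1, the receptor with the widest distribution, stood at 3.48 and 2.14 FPKM against 5.65 and 6.45, also with a log2 fold change of -0.91 (SE 0.19, adjusted p = 0.0154; 0.0667 without replicate 2 of control). Slit1, best known from the nervous system, was higher in Ncr1Cre at 3.01 and 2.19 against 1.31 and 1.19 FPKM (log2 fold change 0.67, SE 0.15, adjusted p = 0.0174), and lost its call without replicate 1 of control (0.0573) and without replicate 2 of control (0.0724). The ratio of Slit3 to Slit1 was 9.13 and 11.6 in Ncr1Cre and 52.0 and 49.97 in control. Slit2 was below the filter at 0.578 and 0.428 against 0.812 and 0.842 FPKM.

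Robo4, the endothelial member of its family, was below the filter and higher in both Ncr1Cre libraries, at 0.513 and 0.768 FPKM against 0.288 and 0.224. Of 9 endothelial markers 8 were tested, of which 3 were higher and 3 lower. Robo3 was listed at 0 in one library of each genotype and did not exceed 0.0408 FPKM. All 10 stromal markers and the 7 tested of 8 smooth-muscle markers were lower in the libraries in which Slit3, Robo1 and Robo2 were lower. The smooth-muscle markers summed to 184 to 187 FPKM in Ncr1Cre and 554 to 561 in control, with none listed at 0. Their part in the SLIT and ROBO result was not tested.

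Of the netrins, Ntn1 rose and Ntn4 fell. Ntn1, the secreted ligand of DCC, neogenin and UNC5 receptors, stood at 54.4 and 43.3 FPKM in Ncr1Cre and 25.6 and 20.5 in control (2.12-fold; log2 fold change 1.05, SE 0.16, adjusted p = 0.00500). Ntn4, which binds laminin in basement membranes, stood at 10.4 and 5.69 FPKM against 28.2 and 25.6 (3.35-fold lower; log2 fold change -1.68, SE 0.26, adjusted p = 0.00545). This was the largest fall on the log2(FPKM + 1) scale among the tested guidance genes, although its Ncr1Cre replicates were themselves 10.4 and 5.69. By the ratio of mean FPKM, Plxna4 fell slightly more, 3.41-fold. Ntn1 gave 81.8% and 87.5% of the summed netrin FPKM in Ncr1Cre and 47.3% and 43.3% in control. The ratio of Ntn1 to Ntn4 was 5.25 and 7.61 against 0.908 and 0.800, so that the leading netrin was Ntn1 in the Ncr1Cre libraries and Ntn4 in the control libraries. Summed netrin FPKM was 58.0 ± 12.01 and 50.8 ± 4.94, and the genotypes overlapped. Ntn5 was below the filter, at 1.11 and 0.457 against 0.0197 and 0.0671 FPKM, and Ntn3 varied from 0.0512 to 1.14 without separating the genotypes.

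Receptors of netrins were lower or did not pass. Dcc was listed at 0 in all libraries. Neo1, which encodes the related receptor neogenin and is not in the families chosen here, stood at 9.89 and 8.64 FPKM in Ncr1Cre and 21.1 in both control libraries (log2 fold change -1.11, adjusted p = 0.000866). Unc5b, a vascular netrin receptor, did not pass at 2.92 and 2.28 against 4.13 and 3.08 FPKM (adjusted p = 0.133), but did under quantile normalization (0.0461). Unc5a did not pass at 1.75 and 1.74 against 2.49 and 2.18 FPKM (0.0887), but did after median rescaling (0.0351), quantile normalization (0.0213) and sum scaling (0.0286), and its exons overlap those of Hk3 on the opposite strand. Unc5c and Unc5d stood at 0.0641 FPKM or less, with Unc5d listed at 0 in 3 of the 4 libraries.

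The genes taken by name alone behaved separately. Unc5cl, whose protein resembles UNC5 receptors and acts in mucosal NF-kB signalling, stood at 2.74 and 2.0 FPKM in Ncr1Cre and 0.670 and 0.534 in control (log2 fold change 1.06, adjusted p = 0.00428). Unc50, which encodes an unrelated Golgi protein, stood at 16.0 and 15.8 against 18.0 and 18.8 FPKM and did not pass (0.0778), but was called lower under all 3 other scalings (0.00883 to 0.0227). Ntng2, a lipid-anchored netrin-G that binds no classical netrin receptor, stood at 2.67 and 2.53 against 4.20 and 3.65 FPKM (log2 fold change -0.45, adjusted p = 0.0231), and lost its call without replicate 2 of Ncr1Cre (0.0701) and without replicate 1 of control (0.116). Ntng1 lay between 0.139 and 0.165 FPKM, and the 6 Slitrk genes, synaptic adhesion proteins of neurons, summed to 0.224 to 0.493 FPKM. Of 7 glial and neuronal markers, Sox10 was listed at 0 in all libraries and 1, Uchl1, reached the filter, at 2.83 and 2.61 against 2.17 and 2.74 FPKM.

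Ligands outweighed receptors in both genotypes to nearly the same extent. The ligand genes summed to 380 and 333 FPKM in Ncr1Cre and 349 and 314 in control, and the receptor genes to 150 and 136 against 135 and 122. The genotypes overlapped in the ligand sum and not in the receptor sum, and both differences were positive in FPKM and negative with the libraries scaled to the same total. With 2 libraries a genotype, the exact two-sided permutation test has a smallest possible p of 0.33, and it gave 0.67 for ligands and 0.33 for receptors. The ratio of summed ligand to summed receptor FPKM was 2.53 and 2.44 in Ncr1Cre and 2.59 and 2.57 in control. The genotypes did not overlap in this ratio (exact permutation p = 0.33, the smallest possible). This ratio does not change when a library is multiplied by a constant, but it rests on single genes. Leaving out Slit3 and Plxnb2, the highest of each sum, turned its log2 difference between genotypes from -0.05 to 0.28.

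Within the systems the ratios differed more. The ephrin-A to EphA ratio was 0.905 and 1.01 in Ncr1Cre and 1.73 and 1.82 in control. The ephrin-B to EphB ratio was 0.768 and 0.813 against 0.963 and 1.03. The semaphorin to plexin ratio was 3.05 and 2.88 against 2.53 and 2.54, and the netrin to UNC5 ratio 14.1 and 12.1 against 8.12 and 8.88. In these 4 systems the genotypes did not overlap, and the exact permutation test gave its smallest possible p of 0.33. The UNC5 sum, 4.73 and 4.08 FPKM in Ncr1Cre and 6.68 and 5.32 in control, leaves out the netrin receptor gene Neo1. Neo1 exceeded that sum in each library, so the netrin to UNC5 ratio does not stand for all netrin receptors. The SLIT to ROBO ratio overlapped, at 4.58 and 4.77 against 5.78 and 4.76 (exact permutation p = 0.67).

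**Figure D4:**
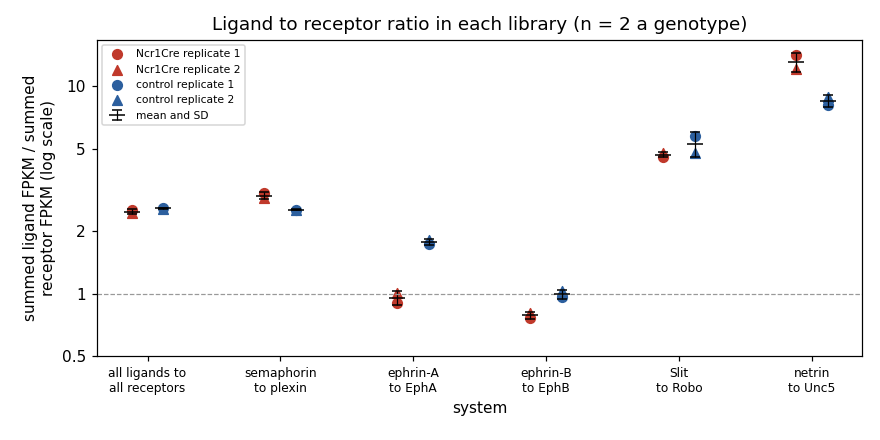
Ratio of summed ligand to summed receptor FPKM (log scale) in each library, for all guidance genes and for 5 systems; coloured points are libraries and black bars the mean and SD of 2 libraries a genotype. The overall ratio lies between 2.44 and 2.59 in all 4 libraries, while the ephrin-A to EphA ratio lies near 1 in Ncr1Cre and between 1.73 and 1.82 in control.

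Beyond ligands and receptors, 66 other genes of the pathways (co-receptors, other ligands and intracellular mediators) were listed, and 55 rows were tested. Of these 10 were higher and 18 lower in Ncr1Cre, or 50.9% called against 48.5% of all tested genes, with a median log2 fold change of -0.16. Fewer of them were called when either control library was left out, and the same held over all tested genes. The largest rise was that of Timd2, an alternative receptor reported for Sema4a that also binds ferritin, at 13.9 and 17.9 FPKM against 2.60 and 2.98 (log2 fold change 2.15, adjusted p = 0.000486). Ngef, which encodes ephexin-1, a partner of EphA receptors, stood at 18.8 and 19.3 against 5.24 and 4.98 FPKM (1.71, adjusted p = 0.000243). The adaptor gene Grb7 stood at 18.2 and 19.3 against 4.55 and 4.21 FPKM (1.88, adjusted p = 0.000241). Tiam1, a Rac exchange factor, stood at 6.32 and 5.41 against 1.72 and 1.78 FPKM (1.32, adjusted p = 0.000917).

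Among the genes of that list that passed, the largest falls were those of Flrt2, Neo1, Dpysl3 and Arhgef12. Flrt2, a membrane ligand of UNC5 receptors, stood at 5.62 and 4.92 FPKM in Ncr1Cre and 19.8 and 21.0 in control (log2 fold change -1.77, adjusted p = 0.000310). Dpysl3, a collapsin response mediator downstream of semaphorins, stood at 20.2 and 20.1 against 41.2 and 40.4 FPKM (-0.98, adjusted p = 0.000517). Arhgef12, whose protein binds plexin-B, stood at 10.2 and 6.16 against 16.5 and 15.6 FPKM (-0.93, adjusted p = 0.0215), a call lost with no filter (0.155), without replicate 1 of control (0.0790) and without replicate 2 of control (0.0646). Rgma, a neogenin ligand in the list that was picked with its values in view, was at 16.9 and 16.4 against 31.5 and 28.1 FPKM (-0.80, adjusted p = 0.00190).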

How the data were processed

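The deposited values are FPKM per gene in 4 libraries. Per the submitters' processing notes, the authors used Cufflinks with mouse build mm9. No aligner, annotation or strand setting is named in the sources used here. Members and lists were chosen with earlier results of these data known. Groups and replicate numbers come from the labels. The 11762 genes averaging 1 FPKM or more were fitted as log2(FPKM + 1) by limma 3.58.1 (R 4.3.3), with its trend option, and p-values were adjusted over all of them (Benjamini-Hochberg). The fit was tested on simulated data. Folds are ratios of mean FPKM, and ± is the SD of 2 libraries. Fragment totals were estimated from low values of 4399 genes with 1 annotated transcript. Between 34.6% and 38.1% of these came out whole within 0.02 fragments, and whole multiples of a total would also make them whole, so no count test was run. An FPKM of 0 can be a failed estimate and is given as listed at 0. Named genes are, in each family, up to 5 with the highest mean and each called gene with a log2 fold change of at least 1 in size, with fixed co-receptors, the 4 largest changes each way of the pathway list and marker genes. Exons of Efna4, Ntng2, Plxna1, Plxna4, Sema4a and Sema4c overlap non-coding genes in GENCODE M21, and reads of these cannot be told apart. Promoters are from RefSeq, GRCm38.p6, matched by symbol.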

Additional observations from a re-analysis of the deposited data

How the results depend on the processing

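The limits are the 2 libraries per genotype, the unknown number of mice and the low depth behind values below 1 FPKM. The 31 called guidance genes (16 higher, 15 lower) were 31 with a pseudocount of 0.1, 21 at a mean of at least 5 FPKM, 34 after median rescaling, 32 after quantile normalization and 33 after sum scaling, and 23 to 30 with 1 library left out, where the spread comes only from the genotype that keeps both libraries. The 21 at a mean of at least 5 FPKM were of 25 tested (84.0%), against 4037 of 7516 genes (53.7%). The called guidance genes were 16 of 76 with no filter and 13 by the rule of size. With no filter the very high markers Col1a1 (adjusted p = 0.460), Sparc (0.160) and Prap1 (0.776) also missed the threshold. The corresponding counts over all genes were 5709, 3941 with no filter, 1471 by the rule of size and 4092 to 5034 with 1 library left out, and 63.7% of the calls were higher, or 41.2% after sum scaling. The pathway list gave 28, 6 by the rule of size and 17 to 26 with 1 library left out. The replicate block gave 30 guidance genes, losing Sema5a (adjusted p = 0.0637), 6004 genes in all and 32 of the pathway list. Replicate differences of the genotypes correlated at 0.161 over genes, and the labels tie replicate numbers to no shared mouse, batch or day, so pairing was not assumed and is not excluded. The log2 difference of summed ligands was 0.10, -0.0049 after median rescaling, -0.14 after sum scaling and 0.30 without the highest gene (0.0083 to 0.20 with 1 library left out). That of receptors was 0.16, 0.049, -0.090 and 0.018 (0.088 to 0.23). That of their ratio was -0.05, or 0.28 without the highest genes (-0.08 to -0.03). The cause of these shifts was not tested. No called guidance gene changed direction under median rescaling, quantile normalization or sum scaling. The other settings could not turn the direction of a called gene. The filters and the replicate block leave the estimate as it is. The genotypes of each called gene did not overlap, so another pseudocount or a library left out cannot turn it. Directions that turned belonged to genes that did not pass. Under quantile normalization these were Sema6b (-0.012), Sema6c (-0.058), Efna5 (-0.13) and Uchl1 (-0.060). After sum scaling they were Sema6c (-0.10), Efna5 (-0.18) and Uchl1 (-0.080), and after median rescaling Efna5 (-0.078). With 1 library left out, Sema3c ranged from -0.034 to 0.021, Sema3e from -0.12 to 0.012, Efna5 from -0.051 to 0.11 and Uchl1 from -0.0093 to 0.23.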
